A study of Mus musculus with 163 samples.

Results

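The genes described here encode 8 transcription factors of arcuate neurons, *Isl1*, *Tbx3*, *Six6*, *Nkx2-1*, *Prdm12*, *Nhlh2*, *Otp* and *Bsx*. They were taken by name from the 12187 genes of an expression table, and all 8 were in it, each with a value in every cell. The cells were GFP-positive neurons sorted one by one from the microdissected hypothalamus of Pomc-eGFP mice (strain label C57/BL6, Tg(Pomc-EGFP)1Low), 7 to 9 weeks old, male and fed ad libitum. Every cell carried the same transgene, in which *Pomc* regulatory sequence drives GFP, so the sort reports activity of that sequence and not the level of *Pomc* itself. No group was treated. All cells were taken as 1 sample, since the labels name no animal, plate or batch. The study reports a batch correction, but the labels do not show which cells shared a batch. The comparisons below are therefore between cells, with no replicate animals told apart, and no p-value was computed. Spreads are SD over cells and intervals cover counting error only.

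Cells were set apart by the levels of the 2 neuropeptide genes. The 48 Agrp-high cells had *Agrp* at 10 log2RPM or more (RPM being reads scaled to a common total per cell), and all other cells are called Agrp-low. Agrp-low cells were divided by *Pomc* into 28 Pomc-low cells (under 6 log2RPM), 53 Pomc-intermediate cells (6 to under 12) and 34 Pomc-very-high cells (12 or more). These classes are ranges of a level and not cell types. On either side of the *Agrp* limit the nearest cells were at 9.99 and 10.12 log2RPM, the next cell below was at 7.15, and 8 cells lay within 1 of it. In Agrp-low cells, 10 lay within 0.5 of the lower *Pomc* limit and 7 within 0.5 of the upper. A gene was detected in a cell at 5 RPM or more, and a mean was called higher or lower where it differed by at least 1 on the log2RPM scale.

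The arcuate nucleus holds both POMC neurons, which lower food intake, and AgRP/NPY neurons, which raise it. Neurons of both kinds arise from progenitors in the same part of the developing hypothalamus. Homeodomain, T-box, PR-domain and basic helix-loop-helix proteins act in combination there to set and then keep the neuropeptide that a neuron makes, through enhancers and promoters of *Pomc*, *Agrp* and *Npy*.

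Every cell had the general neuronal genes *Snap25*, *Stmn2* and *Map2*, while 98.2% had *Tubb3*, 89% *Syt1* and 74.2% *Rbfox3*. *Syt1* was in 20 of 34 Pomc-very-high cells. No 2 cells had identical values. Cells held 1.47 to 35.6 M effective reads (median 8.16 M), so that 5 RPM was 36.5 reads at the median depth and 6.56 reads in the shallowest cell. Levels of the 8 genes followed depth weakly over all cells (Spearman's rho -0.06 to 0.13). In 5 of the 34 Pomc-very-high cells *Tbx19*, the T-box factor that drives *Pomc* in pituitary corticotrophs and melanotrophs, stood at 8.15 to 10.80 log2RPM. Of 8 pituitary markers 3 were in the table (*Prl*, *Pou1f1*, *Tbx19*). Their summed level was 296 to 1786 RPM in these 5 cells, against 0.242 to 116.6 RPM in the other 29 Pomc-very-high cells. That sum includes *Tbx19*, by which the 5 cells were picked, so it is not separate support. *Pou1f1* was detected in 4 of the 5 cells and 3 of the other 29, with maxima of 2.76 and 3.39 log2RPM. *Prl* was detected in 4 of the 5 and 5 of the other 29, with maxima of 6.02 and 6.70. *Prl* had no read in 1 of the 5 cells. *Tubb3* was at 2.06 to 3.39 log2RPM in the 5 cells, against 5.85 to 10.10 in the other 29. *Stmn2* had a median of 2.59 log2RPM (2.37 to 8.01) in the 5 cells, against 9.95 (8.94 to 11.13) in the other 29. Of 8 general neuronal genes a median of 5 was detected in the 5 cells, against 7 in the other 29. *Snap25* was at 10.08 to 11.50 log2RPM in the 5 cells and 9.03 to 11.12 in the other 29, so neuronal markers did not all move together. Because *Tbx19* goes against the hypothalamic label, the main comparisons of Pomc-very-high cells are also given without these cells. Pomc-intermediate cells held other foreign markers, with single cells at up to 17697 RPM of the summed pituitary markers, 138501 RPM of 4 oligodendrocyte markers and 4401 RPM of 2 oligodendrocyte precursor markers. All 3 cells with *Pou1f1* at 5 log2RPM or more were Pomc-intermediate. *Tbx19* reached 5 log2RPM in 8 cells in all, called cells with *Tbx19* below, of which 1 was Pomc-low, 2 were Pomc-intermediate and none was Agrp-high.

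*Isl1*, *Tbx3* and *Six6* were found in most cells of both peptide classes. *Isl1* was detected in 87.1% of all cells (exact 95% interval 81 to 91.8%), *Tbx3* in 83.4% and *Six6* in 71.8%. Cells within 1 log2 unit of the detection limit were 23 for *Isl1*, 15 each for *Tbx3* and *Bsx*, 17 for *Nkx2-1*, 10 each for *Six6* and *Otp*, 4 for *Nhlh2* and 3 for *Prdm12*. The other 5 genes were divided between the classes. *Nkx2-1* was detected in 73 cells (44.8%), *Nhlh2* in 38 (23.3%) and *Prdm12* in 21 (12.9%), and none of these cells was Agrp-high. *Bsx* was detected in 40 cells (24.5%) and *Otp* in 29 (17.8%), most of them Agrp-high.

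**Figure D1:**
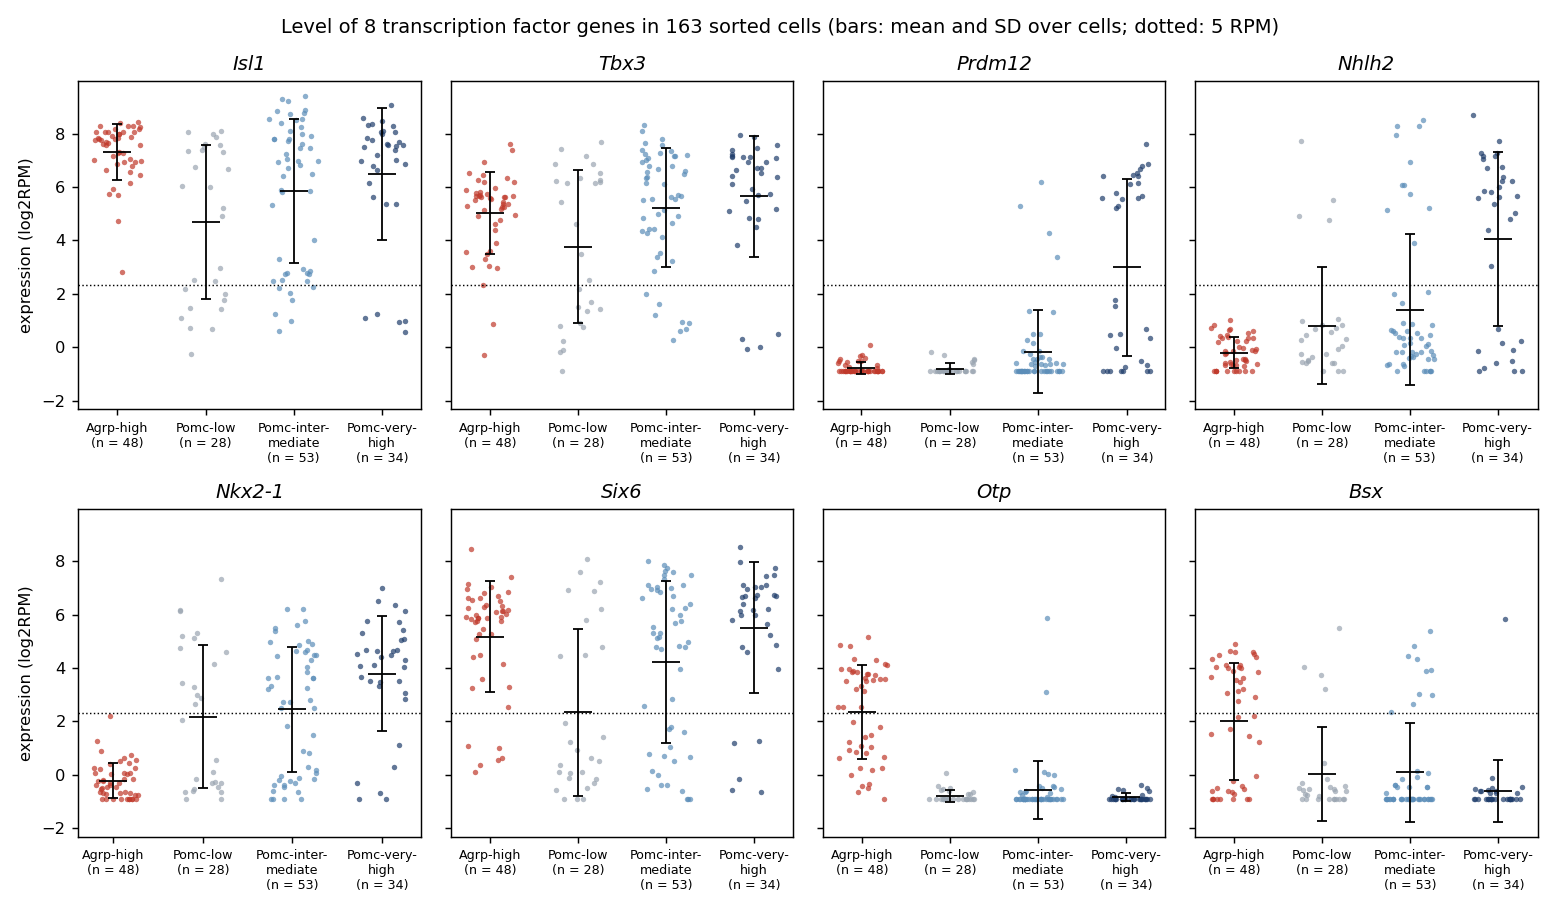
Level of each of the 8 genes in every cell (points, log2RPM on the vertical axis) for 48 Agrp-high, 28 Pomc-low, 53 Pomc-intermediate and 34 Pomc-very-high cells, with the mean and SD over cells as bars and 5 RPM as a dotted line. No Agrp-high cell lies above the line for *Prdm12*, *Nhlh2* or *Nkx2-1*, and 27 of 48 do for *Otp*.

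**Figure D2:**
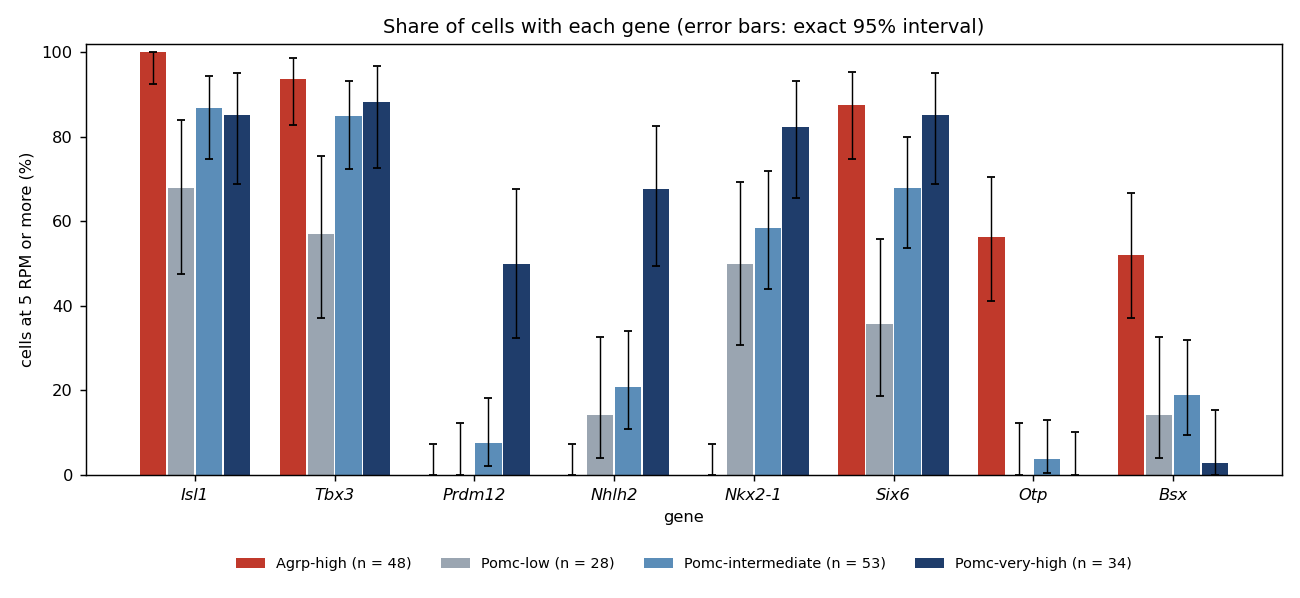
Share of cells with each gene at 5 RPM or more (percent), by group, with exact 95% intervals as error bars. *Isl1* was detected in all 48 Agrp-high cells, whereas *Prdm12* was detected in 50.0% of Pomc-very-high cells and 7.55% of Pomc-intermediate cells.

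The shared factors are described first. *Isl1* (chromosome 13, 116298281 to 116309688, GRCm38) encodes a LIM-homeodomain protein that binds neuronal enhancers of *Pomc* and is needed for its onset. It was detected in all 48 Agrp-high cells (100%, 92.6 to 100%), where the lowest, median and highest levels were 2.80, 7.68 and 8.43 log2RPM. Among Agrp-low cells it was detected in 19 of 28 Pomc-low, 46 of 53 Pomc-intermediate and 29 of 34 Pomc-very-high cells. The lowest, median and highest levels were -0.25, 5.60 and 8.08 log2RPM in Pomc-low cells, 0.59, 6.94 and 9.41 in Pomc-intermediate cells and 0.55, 7.51 and 9.06 in Pomc-very-high cells. The upper ends of the 4 ranges lay between 8.08 and 9.41 log2RPM, and the groups differed in their medians and in how many cells sat near the bottom. The mean was 7.32 ± 1.05 log2RPM in Agrp-high cells and 5.75 ± 2.75 in Agrp-low cells, a difference of 1.57 that was called higher. Without cells with *Tbx19*, *Pou1f1*, *Pdgfra* or *Olig1* at 5 log2RPM or more, this difference was 1.04, just past the limit. The 29 Pomc-very-high cells with *Tbx19* under 5 log2RPM had a mean of 7.43 ± 0.94, so *Isl1* was not higher in Agrp-high cells than in these. In Pomc-low cells the mean was 4.69 ± 2.89, against 5.85 ± 2.71 in Pomc-intermediate cells, a difference of -1.16. It was 0.26 in cells numbered from 99 on, where the direction turned.

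*Isl1* had reads in every cell, including the 21 below the detection limit, where it stood at -0.25 to 2.25 log2RPM with a median of 17 reads. All 21 were Agrp-low: 9 Pomc-low, 7 Pomc-intermediate and 5 Pomc-very-high. The 5 Pomc-very-high cells without *Isl1* were the 5 cells with *Tbx19*, and the other 29 all had *Isl1*. At least 1 of *Tbx19*, *Pou1f1*, *Pdgfra* and *Olig1*, which mark pituitary cells and oligodendrocyte precursors, reached 5 log2RPM in 9 of the 21 cells without *Isl1* (42.9%), against 7 cells, or 4.93%, of those with it. In the remaining 12 none of these 4 markers did. Over all 21 the median of *Stmn2* was 8.91 log2RPM (2.37 to 10.41), against 9.32 (4.72 to 11.29) in cells with *Isl1*. In the 5 Pomc-very-high cells among the 21 its median was 2.59. Cells without *Isl1* had a median of 6416 detected genes, against 7155 in cells with it, and the part of this in the result was not tested.

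**Figure D3:**
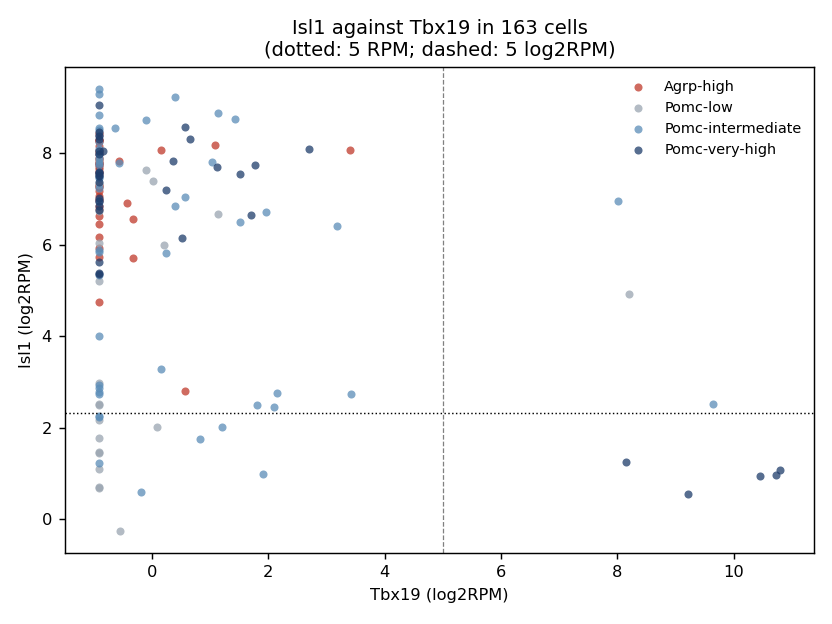
*Isl1* against *Tbx19* in each cell (both in log2RPM), coloured by group, with 5 RPM for *Isl1* dotted and 5 log2RPM for *Tbx19* dashed. The 5 Pomc-very-high cells at the right lie between 0.55 and 1.25 log2RPM of *Isl1*, under every other Pomc-very-high cell.

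*Tbx3* (chromosome 5, counted over 119611263 to 119684724, a stretch wider than the gene) encodes a T-box factor of the ventral hypothalamus that, in mice, is needed for arcuate neurons to keep expressing *Pomc*. Cells with it were 45 of 48 Agrp-high cells (93.8%), against 16 of 28 Pomc-low, 45 of 53 Pomc-intermediate and 30 of 34 Pomc-very-high cells. Its lowest, median and highest levels were -0.30, 5.47 and 7.60 log2RPM in Agrp-high cells. The same values were -0.91, 4.04 and 7.69 in Pomc-low, 0.28, 5.65 and 8.32 in Pomc-intermediate and -0.06, 6.47 and 7.95 in Pomc-very-high cells. The ranges overlapped almost in full. The mean was 5.02 ± 1.53 log2RPM in Agrp-high cells and 5.0 ± 2.49 in Agrp-low cells, so that the difference was 0.02. That value joins ranges of cell numbers that went opposite ways, with 1.19 in cells 1 to 66 and -2.38 in cells 67 to 98, where 5 cells were Agrp-high. *Tbx3* was lower in Pomc-low cells, at 3.77 ± 2.87 against 5.23 ± 2.21 log2RPM in Pomc-intermediate cells, a difference of -1.46, which was 0.076 in cells numbered from 99 on.

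*Six6* (chromosome 12, in a counted stretch of 72881109 to 72965866 that also holds an antisense gene) encodes a SIX-family homeodomain protein of eye, hypothalamus and pituitary. Detection was in 42 of 48 Agrp-high cells (87.5%), against 10 of 28 Pomc-low (35.7%), 36 of 53 Pomc-intermediate (67.9%) and 29 of 34 Pomc-very-high cells (85.3%). Agrp-high cells had 0.10, 5.89 and 8.45 log2RPM as lowest, median and highest level. In Pomc-low, Pomc-intermediate and Pomc-very-high cells the medians were 0.78, 5.16 and 6.32 log2RPM and the highest levels 8.10, 8.03 and 8.54. Among Agrp-low cells the median thus went up with *Pomc*, while single cells of each range reached about the same maximum. The mean was 5.18 ± 2.06 log2RPM in Agrp-high cells and 4.15 ± 3.10 in Agrp-low cells, a difference of 1.03 that lies just past the limit. It was 5.52 ± 2.45 in Pomc-very-high cells, 1.29 higher than the 4.23 ± 3.02 of Pomc-intermediate cells. In Pomc-low cells it was 2.34 ± 3.13, which is 1.89 below Pomc-intermediate cells and the 13th lowest difference of 12187 genes. *Six6* shares 192 of its 4009 exonic bases (4.79%) with the antisense gene *4930447C04Rik*. The library kit does not keep strand, so reads in those bases cannot be told apart. *4930447C04Rik* was detected in 88.3% of cells, 10 cells had *Six6* without it, and the 2 levels correlated weakly (rho 0.24 over all cells).

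The 5 factors that divided the classes follow, beginning with the 3 on the *Pomc* side. *Nkx2-1* (chromosome 12, 56531935 to 56536908) encodes the NK2 homeodomain protein that specifies the ventral hypothalamus and also binds *Pomc* enhancers. It was detected in 0 of 48 Agrp-high cells, which allows a share of up to 6.25%. Detection was in 14 of 28 Pomc-low (50.0%), 31 of 53 Pomc-intermediate (58.5%) and 28 of 34 Pomc-very-high cells (82.4%). The lowest, median and highest levels were -0.91, -0.34 and 2.2 log2RPM in Agrp-high cells. Pomc-low cells had a median of 2.35 and a maximum of 7.33 log2RPM, Pomc-intermediate cells 2.79 and 6.21, and Pomc-very-high cells 4.36 and 6.99. Agrp-high cells thus lay together at the bottom of the range, and each Agrp-low group had cells both there and well above it. The mean of *Nkx2-1* was -0.21 ± 0.67 log2RPM in Agrp-high cells and 2.78 ± 2.45 in Agrp-low cells. The difference of -3.00 was the 18th lowest of 12187 genes. In Pomc-very-high cells the mean was 3.79 ± 2.15, against 2.45 ± 2.35 in Pomc-intermediate cells, a difference of 1.34. Agrp-low cells with *Nkx2-1* had a median depth of 8.54 M reads, against 6.39 M in Agrp-low cells without it, and the part of depth was not tested. Median depth was 8.52 M in Agrp-high cells and 8.06 M in Agrp-low cells, and rho of *Nkx2-1* with depth was -0.48 within Agrp-high cells and 0.22 within Agrp-low cells.

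*Prdm12* (chromosome 2, counted over 31638170 to 31655795, a stretch that begins before the annotated start at 31640037) encodes a PR-domain zinc finger protein. It is best known from pain-sensing neurons and, in mice, is needed for *Pomc* expression in the hypothalamus. It was detected in 0 of 48 Agrp-high cells, which allows a share of up to 6.25%, and in 0 of 28 Pomc-low cells, which allows up to 10.7%. Cells with it were 4 of 53 Pomc-intermediate cells (7.55%) and 17 of 34 Pomc-very-high cells (50.0%, 32.4 to 67.6%). The highest level was 0.09 log2RPM in Agrp-high, -0.20 in Pomc-low and 6.18 in Pomc-intermediate cells. Pomc-very-high cells had -0.91, 3.50 and 7.60 log2RPM as lowest, median and highest level. Its levels left a gap: the 21 cells with it lay between 3.39 and 7.60 log2RPM and no other cell was above 1.78. The mean was 2.99 ± 3.30 log2RPM in Pomc-very-high cells and -0.17 ± 1.55 in Pomc-intermediate cells, and the difference of 3.15 was the 5th highest of 12187 genes. The 4 Pomc-intermediate cells with *Prdm12* had 3.39, 4.26, 5.27 and 6.18 log2RPM of it. Their *Pomc* was 8.89 to 11.51 log2RPM, against a mean of 8.60 ± 1.75 over all Pomc-intermediate cells. Between Agrp-high cells (-0.79 ± 0.22) and Agrp-low cells (0.61 ± 2.59) the difference was -1.40.

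*Nhlh2* (chromosome 3, 102010145 to 102015492) encodes a basic helix-loop-helix protein. Mice without it become obese as adults, and *Pcsk1*, the prohormone convertase that cuts POMC, is described as its target. It was detected in 0 of 48 Agrp-high cells, which allows a share of up to 6.25%, and in 4 of 28 Pomc-low (14.3%), 11 of 53 Pomc-intermediate (20.8%) and 23 of 34 Pomc-very-high cells (67.6%). The highest level in Agrp-high cells was 1.00 log2RPM. Medians and maxima were 0.15 and 7.73 log2RPM in Pomc-low cells, 0.34 and 8.52 in Pomc-intermediate cells and 5.61 and 8.70 in Pomc-very-high cells. A few cells with low or intermediate *Pomc* had as much *Nhlh2* as the upper Pomc-very-high cells. The mean was 4.06 ± 3.26 log2RPM in Pomc-very-high cells and 1.39 ± 2.83 in Pomc-intermediate cells, a difference of 2.66 that was the 16th highest of 12187 genes. In cells numbered from 99 on this difference was 0.03, and 0.78 there without *Tbx19*, against 5.74 in cells 67 to 98. The mean of *Nhlh2* was -0.20 ± 0.58 in Agrp-high cells and 2.04 ± 3.10 in Agrp-low cells, a difference of -2.24.

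Genes at 0 Agrp-high cells were uncommon: of the 11326 genes detected in at least 10% of Agrp-low cells, 93 (0.821%) were detected in no Agrp-high cell, and *Nkx2-1*, *Prdm12* and *Nhlh2* were 3 of them. Reads of these genes below the limit were present in some Agrp-high cells. At 1 RPM or more, *Nkx2-1* and *Nhlh2* were each found in 17 of 48 Agrp-high cells and *Prdm12* in 1. Detection at a lower limit therefore does not give the same split, although the levels in these cells stayed at or under 2.2 log2RPM.

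**Figure D4:**
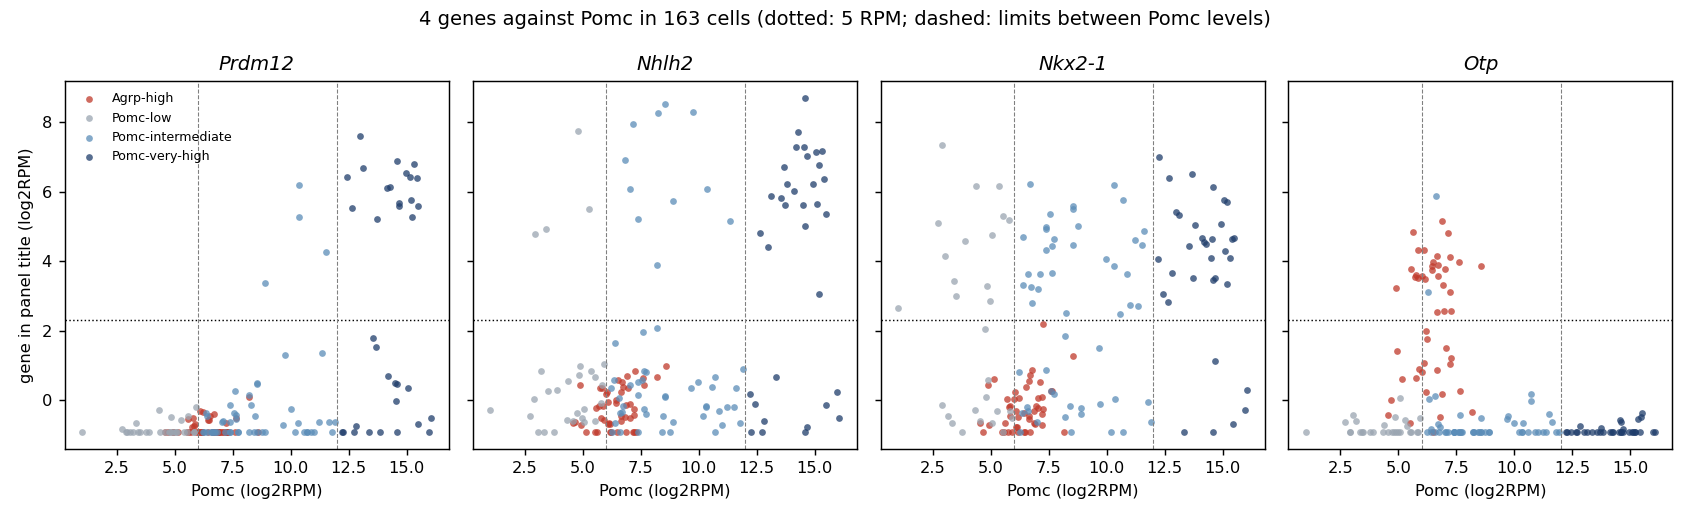
*Prdm12*, *Nhlh2*, *Nkx2-1* and *Otp* against *Pomc* in each cell (all in log2RPM), coloured by group, with 5 RPM dotted and the *Pomc* limits at 6 and 12 dashed. *Prdm12* lies above the dotted line in no cell with *Pomc* under 6, and *Otp* in no cell with *Pomc* of 12 or more.

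On the *Agrp* side, *Otp* (chromosome 13, 94875627 to 94883681) encodes the orthopedia homeodomain protein, needed for several neuroendocrine cell types of the hypothalamus. *Otp* was detected in 27 of 48 Agrp-high cells (56.3%), 0 of 28 Pomc-low cells (up to 10.7%), 2 of 53 Pomc-intermediate cells (3.77%) and 0 of 34 Pomc-very-high cells (up to 8.82%). Agrp-high cells had -0.91, 2.84 and 5.15 log2RPM as lowest, median and highest level. The maxima were 0.07 log2RPM in Pomc-low, 5.88 in Pomc-intermediate and -0.37 in Pomc-very-high cells. Agrp-high cells thus lay on both sides of the detection limit, and 2 Agrp-low cells lay among them. The mean of *Otp* was 2.35 ± 1.75 log2RPM in Agrp-high cells and -0.70 ± 0.76 in Agrp-low cells, a difference of 3.05 that was the 55th highest of 12187 genes. One of the 2 Agrp-low cells with *Otp* was the cell nearest the limit, with 9.99 log2RPM of *Agrp* and 3.11 of *Otp*. The other had 3.21 log2RPM of *Agrp*, 5.88 of *Otp* and 3.64 of *Nkx2-1*.

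*Bsx* (chromosome 9, 40874127 to 40877972) encodes the brain-specific homeobox protein, which in mice is needed for normal *Npy* and *Agrp* expression. Detection of *Bsx* was in 25 of 48 Agrp-high cells (52.1%), 4 of 28 Pomc-low (14.3%), 10 of 53 Pomc-intermediate (18.9%) and 1 of 34 Pomc-very-high cells (2.94%). Agrp-high cells had -0.91, 2.85 and 4.88 log2RPM as lowest, median and highest level. Maxima in Pomc-low, Pomc-intermediate and Pomc-very-high cells were 5.50, 5.40 and 5.84 log2RPM, so the single highest cells were Agrp-low. The mean was 2.01 ± 2.19 log2RPM in Agrp-high cells and -0.12 ± 1.67 in Agrp-low cells, a difference of 2.13. Between Pomc-very-high cells (-0.59 ± 1.15) and Pomc-intermediate cells (0.10 ± 1.86) it was -0.70 and was not called.

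Over the 8 genes, 4 were higher in Agrp-high cells than in Agrp-low cells (*Isl1*, *Six6*, *Otp*, *Bsx*), against 8.65% of all 12187 genes. The 3 lower ones (*Prdm12*, *Nhlh2*, *Nkx2-1*) stand beside 2.94% of all genes. The median difference was 0.53 for the 8 genes and 0.19 for all genes. After the cells were rescaled on widely detected genes the median of all genes was 0.02, and 6.09% of genes were higher and 3.70% lower. *Six6* (0.84) was then no longer called and the other 6 calls remained. In Pomc-very-high cells 4 of the 8 were higher than in Pomc-intermediate cells (*Prdm12*, *Nhlh2*, *Nkx2-1*, *Six6*) and 0 lower, against 4.64% and 4.78% of all genes, with a median difference of 0.96 against -0.01. In Pomc-low cells 0 were higher and 3 lower than in Pomc-intermediate cells (*Isl1*, *Tbx3*, *Six6*), against 4.92% and 2.97% of all genes, with a median of -0.61 against 0.03. None of these 3 calls held in cells numbered from 99 on, where *Nkx2-1* (-1.45) and *Nhlh2* (-1.11) were lower instead. The share of all genes lower in that range was not computed.

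Leaving out cells with *Tbx19* at 5 log2RPM or more moved the comparison of Pomc-very-high with Pomc-intermediate cells. The 7 calls between Agrp-high and Agrp-low cells were all kept without these cells. In the 29 Pomc-very-high cells that remained, *Isl1* and *Tbx3* were detected in 29, *Nkx2-1* in 28 (96.6%), *Six6* in 26 (89.7%), *Nhlh2* in 23 (79.3%), *Prdm12* in 17 (58.6%), *Bsx* in 1 and *Otp* in 0. In the 5 cells left out, *Six6* was detected in 3, at 4.86, 7.04 and 8.54 log2RPM, *Tbx3* in 1 at 7.95, and the other 6 genes in none, which with 5 cells allows a share of up to 60%. Without cells of that kind in either group, 6 of the 8 genes were higher in Pomc-very-high cells: *Prdm12* by 3.78, *Nhlh2* by 3.32, *Nkx2-1* by 2.08, *Six6* by 1.55, *Isl1* by 1.54 and *Tbx3* by 1.11. Leaving out cells with any of *Tbx19*, *Pou1f1*, *Pdgfra* and *Olig1* at that level gave 5 higher, against 6.72% of all genes. *Isl1* was then at 1.14 and *Tbx3* at 0.72, which is not called. With *Tbx19* cells alone left out, the median of the 8 differences was 1.55, against 0.08 over all genes, of which 6.93% were higher and 3.91% lower.

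The promoters of *Pomc* and of 3 genes that divided the classes are shown because these genes took opposite sides of the split. Each run is the 250 bases before the annotated start (RefSeq, GRCm38.p6). Capitals mark ATTA on either strand (TAAT as printed where it lies on the other), the core of many homeodomain sites, and CANNTG, the E-box that helix-loop-helix proteins bind, which reads the same on both strands.
Pomc promoter (chr12:3954695-3954944, + strand): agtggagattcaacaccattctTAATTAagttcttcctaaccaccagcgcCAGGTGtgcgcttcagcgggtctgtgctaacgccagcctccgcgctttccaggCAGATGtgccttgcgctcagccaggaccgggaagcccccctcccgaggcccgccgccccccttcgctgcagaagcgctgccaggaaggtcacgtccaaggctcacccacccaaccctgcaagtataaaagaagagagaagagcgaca
Prdm12 promoter (chr2:31639787-31640036, + strand): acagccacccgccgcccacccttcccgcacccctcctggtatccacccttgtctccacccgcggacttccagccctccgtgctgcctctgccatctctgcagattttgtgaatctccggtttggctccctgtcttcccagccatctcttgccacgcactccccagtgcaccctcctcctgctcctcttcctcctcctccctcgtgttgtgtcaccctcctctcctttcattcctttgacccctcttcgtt
Nhlh2 promoter (chr3:102009895-102010144, + strand): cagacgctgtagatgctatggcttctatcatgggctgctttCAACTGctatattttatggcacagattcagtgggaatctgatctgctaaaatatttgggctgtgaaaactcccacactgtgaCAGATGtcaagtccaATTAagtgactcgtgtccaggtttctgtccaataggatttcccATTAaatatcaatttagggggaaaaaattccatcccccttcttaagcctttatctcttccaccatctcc
Otp promoter (chr13:94875386-94875635, + strand): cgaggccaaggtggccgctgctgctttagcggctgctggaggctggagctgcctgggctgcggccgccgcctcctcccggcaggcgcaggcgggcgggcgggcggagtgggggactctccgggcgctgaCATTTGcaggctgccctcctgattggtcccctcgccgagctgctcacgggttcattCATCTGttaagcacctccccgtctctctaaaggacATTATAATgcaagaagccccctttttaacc

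*Pomc*, *Nhlh2* and *Otp* each held 2 ATTA and 2 CANNTG matches, and no matched bases were shared between the motifs. Both ATTA matches of *Pomc* lie in 1 palindrome, starting 228 and 226 bases before the start site, and those of *Otp* start at 30 and 26. *Prdm12*, *Six6* and *Npy* held neither motif, *Isl1* held 2 ATTA and 1 CANNTG, and *Nkx2-1* and *Bsx* held 1 CANNTG each. Of 32851 promoters of this length, 54.9% held ATTA, 66.2% CANNTG and 38.3% both, so a match is common. Of the 8 genes 7 had an entry, *Tbx3* being the exception. These are matches of letters and were not tested as binding sites.

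The 8 genes fell into 41 combinations over the cells, of 256 that are possible, and 18 of the combinations were in 1 cell each. The 6 commonest held 82 cells. *Isl1*, *Tbx3*, *Nkx2-1* and *Six6* alone were the set of 18 cells, of which 0 were Agrp-high, 4 Pomc-low, 12 Pomc-intermediate and 2 Pomc-very-high. *Isl1*, *Tbx3* and *Six6* with no other were the set of 17 cells, 10 of them Agrp-high. All 6 factors except *Otp* and *Bsx* were found together in 14 cells, each of them Pomc-very-high, with *Pomc* at 12.65 to 15.49 log2RPM. The remaining common sets were of the *Agrp* side. *Isl1*, *Tbx3* and *Six6* came with *Otp* and *Bsx* in 12 cells (11 Agrp-high, 1 Pomc-intermediate), with *Bsx* alone in 11 cells (8 Agrp-high) and with *Otp* alone in 10 cells (all Agrp-high).

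A base of *Isl1*, *Tbx3* and *Six6* together was present in 39 of 48 Agrp-high cells (81.3%), 7 of 28 Pomc-low, 29 of 53 Pomc-intermediate and 26 of 34 Pomc-very-high cells, or 26 of the 29 without *Tbx19*. Cells held 3.66 ± 1.42 of the 8 genes, in a range of 0 to 6. The mean number was 3.90 ± 0.78 in Agrp-high cells, against 2.39 ± 1.20 in Pomc-low, 3.49 ± 1.17 in Pomc-intermediate and 4.62 ± 1.81 in Pomc-very-high cells. The 29 Pomc-very-high cells without *Tbx19* had 3 to 6 (mean 5.28 ± 0.84) and the 5 with it had 0 to 2. In all, 16 cells had at most 1 of the genes.

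*Prdm12*, *Nhlh2* and *Nkx2-1* were often found in the same cell. Of the 21 cells with *Prdm12*, 16 had *Nhlh2* (76.2%), against 15.5% of the cells without *Prdm12*, and 18 had *Nkx2-1* (85.7%, against 38.7%). Within Agrp-low cells alone the shares without *Prdm12* were 23.4% for *Nhlh2* and 58.5% for *Nkx2-1*, or 25.6% and 62.8% with *Tbx19* cells left out. All 21 cells had *Isl1* and *Tbx3*, 19 had *Six6*, and none had *Otp* or *Bsx*. The 3 factors of the *Pomc* side occurred together in 15 cells, each of them Pomc-very-high. Of the 29 Pomc-very-high cells without *Tbx19*, 15 had both *Prdm12* and *Nhlh2*, 8 had only *Nhlh2*, 2 only *Prdm12* and 4 neither. The 4 cells with neither had *Pomc* at 12.20 to 12.83 log2RPM, the lower end of the range, whereas the 8 with only *Nhlh2* were at 13.56 to 15.06. The 15 with both were at 12.65 to 15.49 and the 2 with only *Prdm12* at 12.43 and 14.67. These last sets overlapped the cells with neither.

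*Otp* and *Bsx* were detected together in 16 cells, 15 of them Agrp-high. Within Agrp-high cells *Bsx* was found in 15 of 27 cells with *Otp* (55.6%) and in 10 of 21 cells without it (47.6%), a difference of few cells. All 29 cells with *Otp* had *Isl1*, 27 had *Tbx3* and 25 had *Six6*.

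Cells could be sorted by which side they held. At least 1 of *Prdm12*, *Nhlh2* and *Nkx2-1* with neither *Otp* nor *Bsx* was found in 72 cells, 0 of them Agrp-high. At least 1 of *Otp* and *Bsx* with none of the other 3 was found in 43 cells, 37 of them Agrp-high and 6 Agrp-low. Both sides were present in 10 cells (6.13%), all Agrp-low, of which 8 were Pomc-intermediate. Among these 10, 8 paired *Nkx2-1* with *Bsx*, 2 paired *Nhlh2* with *Bsx* and 1 paired *Nkx2-1* with *Otp*, 1 cell holding both of the first pairs, and none had *Prdm12*. Neither side was present in 38 cells, 11 of them Agrp-high.

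**Figure D5:**
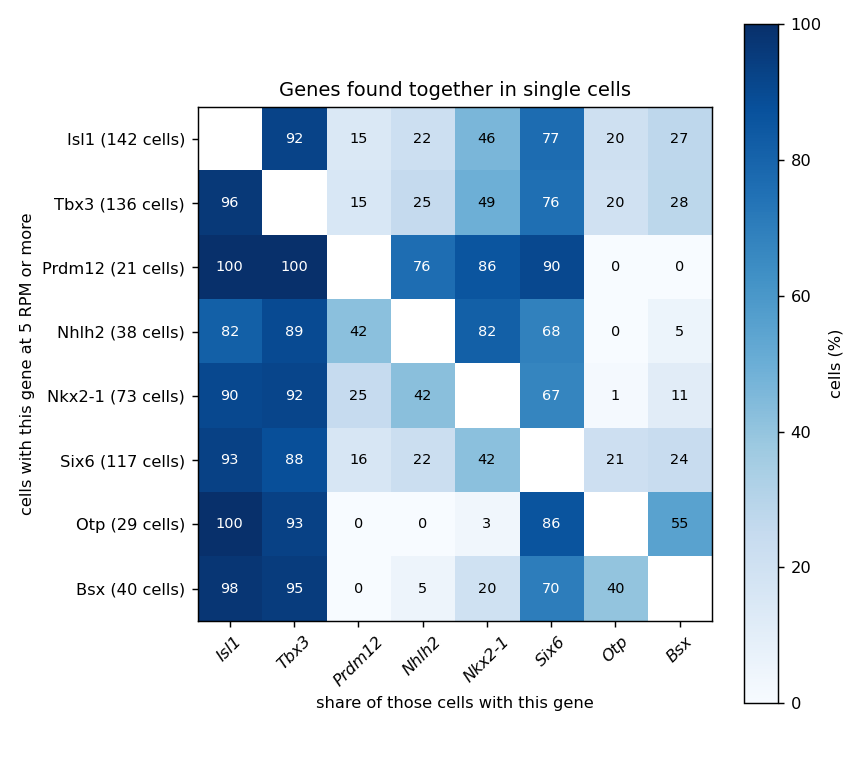
Share of the cells with the row's gene that also had the column's gene (percent, at 5 RPM or more), over all cells, with the number of cells in the row label. Of 21 cells with *Prdm12*, 16 had *Nhlh2* and 0 had *Otp*, and of 29 cells with *Otp*, 16 had *Bsx* and 1 had *Nkx2-1*.

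Correlations over all cells of the 4 groups, which share the sort, the chemistry and the authors' normalization, are given as descriptions. With *Pomc*, Spearman's rho was 0.52 for *Prdm12*, the 3rd highest of 12186 genes, 0.35 for *Nhlh2* (22nd) and 0.34 for *Nkx2-1* (28th). It was 0.27 for *Six6*, 0.24 for *Tbx3*, 0.11 for *Isl1*, -0.26 for *Bsx* and -0.30 for *Otp*. With *Agrp* it was 0.72 for *Otp*, the 6th highest, 0.47 for *Bsx* and -0.48 for *Nkx2-1* (15th lowest). With *Agrp* it was also -0.24 for *Tbx3*, -0.24 for *Nhlh2* and -0.22 for *Prdm12*. For *Isl1* and *Six6* rho with *Agrp* was near 0 over all cells, at 0.04 and 0.07, although both means were higher in Agrp-high cells. Within Agrp-high and within Agrp-low cells it was -0.21 and -0.21 for *Isl1*, and 0.01 and 0.03 for *Six6*. Within the Agrp-low cells (28, 53 and 34) *Prdm12* kept its relation with *Pomc* (0.56, the 2nd highest), whereas *Nkx2-1* had 0.21. Within the 48 Agrp-high cells *Otp* and *Bsx* did not follow *Agrp*, with rho of -0.17 and -0.05. Without the 8 cells with *Tbx19*, rho with *Pomc* was 0.55 for *Prdm12*, 0.38 for *Nhlh2*, 0.41 for *Nkx2-1*, 0.31 for *Tbx3* and 0.20 for *Isl1*, and rho with *Agrp* was 0.73 for *Otp* and -0.54 for *Nkx2-1*. Within Agrp-low cells without *Tbx19*, rho with *Pomc* was 0.63 for *Prdm12*, 0.36 for *Isl1* and 0.30 for *Nkx2-1*.

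*Cartpt*, a peptide gene found in many POMC neurons, was compared in the 34 Pomc-very-high cells. Its mean was 10.29 log2RPM with *Prdm12* and 8.35 without, 10.34 with *Nhlh2* and 7.18 without, and 9.96 with *Nkx2-1* and 6.31 without. The 5 cells with *Tbx19* had a mean of 5.27 log2RPM of *Cartpt*, against 10.02 in the other 29, and all 5 were among the cells without each factor. In the other 29 the mean was 10.29 ± 3.0 in 17 cells with *Prdm12* and 9.64 ± 3.70 in 12 without, and 10.34 ± 3.15 in 23 cells with *Nhlh2* and 8.78 ± 3.69 in 6 without, both within the spread between cells. For *Nkx2-1* the direction turned, with a mean of 9.96 in 28 cells with it and 11.53 in the 1 cell without it. In Pomc-intermediate cells the order for *Nhlh2* was the other way, with 4.22 ± 1.31 log2RPM of *Cartpt* in 11 cells with it and a mean of 7.22 in 42 without it. These include the 2 Pomc-intermediate cells with *Tbx19*. Without those 2 the *Cartpt* mean of all Pomc-intermediate cells was 6.34 in place of 6.59, and the split by *Nhlh2* was not repeated.

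The genes with the pattern most like each factor were listed by rho over all cells, among 11263 genes detected in at least 10% of cells. For *Prdm12* they were *Pomc* (0.52), *Cpne4* (0.50) and *Nhlh2* (0.50). *Cpne4* was detected in 1 Agrp-high cell, against 5 Pomc-low, 17 Pomc-intermediate and 25 Pomc-very-high cells. For *Nhlh2* they were *Slc17a6* (0.50), which encodes a vesicular glutamate transporter, *Prdm12* (0.50) and *Tenm1* (0.48). For *Nkx2-1* they were *Ptpn5* (0.57), *Rnf128* (0.54) and *Pcdh19* (0.53), a protocadherin detected in 9 of 48 Agrp-high cells and 48 of 53 Pomc-intermediate cells. *Otp* was most like *Npy* (0.73), *Agrp* (0.72) and *Npy2r* (0.68), an NPY receptor gene detected in all 48 Agrp-high cells. *Bsx* was most like *Calcr* (0.52), the calcitonin receptor gene, *Npy* (0.49) and *Agrp* (0.47), and *Calcr* was detected in 42 of 48 Agrp-high cells against 6 of 34 Pomc-very-high cells. For *Six6* the first was its relative *Six3* (0.50), detected in 43 Agrp-high cells and 33 of 34 Pomc-very-high cells, then *Gad2* (0.35) and *Rab3b* (0.34). *Isl1* was most like *Gstm6* (0.43), *Cited1* (0.43) and *Btg3* (0.42), and *Tbx3* like *Tstd3* (0.43), *Zcchc12* (0.41) and *Ppp2r2b* (0.39). Within Agrp-low cells alone, in the same order, rho was 0.36, 0.35 and 0.24 for *Otp* and 0.41, 0.36 and 0.22 for *Nkx2-1*. There it was 0.42, 0.31 and 0.31 for *Bsx*, 0.41, 0.52 and 0.36 for *Nhlh2*, and 0.56, 0.51 and 0.52 for *Prdm12*. Each of the 3 values was higher than over all cells for *Six6*, *Isl1* and *Tbx3*.

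Other regulators were read from lists of genes set beside the 8. Of 32 other arcuate and ventral hypothalamic transcription factors 21 were in the table. In Agrp-high cells 4 were higher and 5 lower, against 8.65% and 2.94% of all genes. Their median difference was -0.32, against 0.19 over all genes. *Foxo1*, which acts below the insulin and leptin receptors, was detected in 45 of 48 Agrp-high cells, against 34 Agrp-low cells, a difference of 3.64. *Prox1* was higher by 2.98, *Nr0b1* by 1.68 and *Nr5a2* by 1.01. *Esr1*, the oestrogen receptor gene, was detected in 1 Agrp-high cell and 72 Agrp-low cells and differed by -3.63, which is further than *Nkx2-1*. *Sox2* (-2.54), *Sox3* (-2.16) and *Dlx5* (-1.17) were also lower. Of 18 transcription factors of neighbouring nuclei only 3 were in the table, and *Lhx5* was lower (-1.06).

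Of 24 cofactors of these protein families 23 were in the table. *Ssbp2* (1.24), *Ssbp4* (1.22) and *Ldb2* (1.02), or 3 of 23, were higher in Agrp-high cells, against 8.65% of all genes. *Lmo1* (-2.48), or 1 of 23, was lower, against 2.94%. *Ldb1* (-0.36) and *Ssbp3* (0.07), relatives of the higher ones, were not called. Of 9 genes described as targets of the 8 factors 8 were in the table. *Npy* (8.72) and *Sst* (2.31) were higher in Agrp-high cells and *Pomc* (-2.80) was lower, while *Agrp* (8.55) defined the groups. Among general neuronal genes *Elavl4* (1.06) was higher and *Rbfox3* (-1.61) lower, and of 4 oligodendrocyte genes *Mag* (1.56) was higher. Of the 3 pituitary markers measured *Tbx19* (-1.11) was lower. None of the astrocyte, tanycyte or oligodendrocyte precursor markers in the table was called, and no marker of microglia or endothelium was in it.

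Cell numbers ran in 3 ranges that differed in content, and what the ranges stand for is not given in the sources used here. Of cells 1 to 66, 32 were Agrp-high, of cells 67 to 98, 5, and of those from 99 on, 11. *Agrp* in Agrp-low cells averaged 5.20, 1.23 and 2.78 log2RPM in the 3 ranges. *Otp* was detected in 19 of 32, 0 of 5 and 8 of 11 Agrp-high cells, and *Bsx* in 14, 5 and 6 of them. *Nhlh2* was detected in 8 of 8, 8 of 9 and 7 of 17 Pomc-very-high cells, the last being 7 of 12 without *Tbx19*, whereas *Prdm12* was in 5, 6 and 6 of them. *Nkx2-1*, *Prdm12* and *Nhlh2* were detected in 0 Agrp-high cells of each range.

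Differences within the 3 ranges are given in the order of cell numbers. Between Agrp-high and Agrp-low cells they were -2.86, -4.48 and -2.72 for *Nkx2-1*, -2.28, -2.90 and -2.32 for *Nhlh2*, and -1.17, -2.10 and -1.17 for *Prdm12*. These 3 genes were lower in each range. *Bsx* was higher in each, by 1.7, 3.94 and 2.44. Over all genes 8.60%, 21.3% and 16.6% were higher in the 3 ranges and 5.97%, 19.5% and 6.96% lower, so a call in the middle range, with 5 Agrp-high cells, is a common one. *Otp* had 3.03, 0.92 and 3.76, *Isl1* 2.40, 0.79 and 1.41, and *Six6* 1.33, 2.77 and 0.83, so each of these missed the limit of 1 in a single range. Between Pomc-very-high and Pomc-intermediate cells *Prdm12* was higher in each range, by 4.46, 4.42 and 1.88 (2.92 in the last range without *Tbx19*), beside 19%, 13.8% and 8.66% of all genes. *Nkx2-1* had 2.39, 2.39 and 0.29 (1.64 in the last range without *Tbx19*), and *Six6* had 1.66, 2.91 and 0.36 (0.82 without *Tbx19*). *Bsx* had -1.12, -1.93 and 0.08, past the limit in 2 ranges and of the other sign in the last, beside 11%, 19.3% and 9.94% of all genes lower. The cells numbered from 99 on hold 7 of the 8 cells with *Tbx19*. With or without these cells, that range gave the smallest difference for *Prdm12*, *Nkx2-1* and *Six6*, and the cause was not tested. Between Pomc-low and Pomc-intermediate cells *Six6* had -2.66, -2.48 and -0.19, *Nkx2-1* 0.89, -0.30 and -1.45, and *Nhlh2* -0.40, 0.31 and -1.11.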

How the data were processed

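Single cells were sorted on GFP into plates and their RNA amplified with SMART-Seq v4 and made into Nextera XT libraries, which keep no strand. The submitters' processing notes name CASAVA 1.7, TopHat2 2.0.11, Cufflinks 2.2.1, edgeR, limma and GRCm38. The authors deposited log2 values, log2RPM after their own normalization, for 12187 genes, 1 column a cell, with a common lowest value of -0.91 where no read was counted. Each gene reached 5 RPM in at least 7 cells, so a gene of fewer cells could not be seen. Low values lie on steps of 1 read, from which read numbers were computed, and 99.3% of values of 1 to 20 reads came out whole within 0.1.

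Means of log2RPM, detection at 5 RPM, exact 95% binomial intervals, the limit that a count of 0 allows (3 counts) and Spearman's rho were computed with Python 3.11.15, numpy 2.4.6, scipy 1.17.1 and pandas 2.3.3, and the code was tested on simulated data. Figures used matplotlib 3.10.9. Cells were taken as 1 sample, so no test was made. The genes, lists and limits were chosen with earlier results of these data known. Named genes are the 8 factors, *Pomc*, *Agrp*, *Npy* and *Cartpt*, the 3 genes most like each factor, and in each list at most 4 genes each way that differed by 1 or more between Agrp-high and Agrp-low cells. *Tbx19*, *Pou1f1*, *Pdgfra*, *Olig1*, *Prl*, *Tubb3*, *Stmn2*, *Snap25*, *Map2*, *Syt1*, *Ldb1*, *Ssbp3*, *Pcsk1* and *4930447C04Rik* were named outside this rule, the markers and the antisense gene after values were seen. Promoter sequences were read from RefSeq (GRCm38.p6).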

Additional observations from a re-analysis of the deposited data

How the results depend on the processing

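With any read counted as detection, cells held 6.23 of the 8 genes in place of 3.66. No gene of the 8 was then absent from Agrp-high cells, and 0 were at 1 RPM, against 3 at 5 RPM. Cells with both sides were 25.2% at 1 RPM, 68.1% with any read and 12.5% in cells 67 to 98 alone, against 6.13%. The number of genes higher in Agrp-high cells was 2 in place of 4 (8.65% of all genes) with a pseudocount of 5 RPM (2.54%), in cells 67 to 98 alone (21.3%), and in cells from 99 on without *Tbx19* (14.6%). Genes higher in Pomc-very-high than in Pomc-intermediate cells were 2 with that pseudocount (1.22% of all genes) and 1 in cells from 99 on (8.66%), in place of 4 (4.64%). Genes lower in that comparison were 1 (*Bsx*) in place of 0 (4.78% of all genes) in 4 settings. These were a pseudocount of 0.1 RPM (8.54%) and *Pomc* limits of 7 and 13 (6.54%). The others were cells 1 to 66 (11%) and cells 67 to 98 (19.3%). Genes lower in Pomc-low cells were 1 in place of 3 (2.97% of all genes) with a pseudocount of 5 RPM. The share of all genes at that setting was not computed. *Isl1* also lost this call with *Pomc* limits of 5 and 11, and *Six6* with limits of 7 and 13. The correlation of *Prdm12* with *Pomc* was 0.62 as Pearson's r, and 0.62 as Spearman's over cells with reads of both, in place of 0.52, and that of *Otp* with *Agrp* 0.62 over cells with reads of both, in place of 0.72. In cells from 99 on the difference of Pomc-low from Pomc-intermediate cells was 0.26 for *Isl1* (0.20 without *Tbx19*), in place of -1.16, and 0.076 for *Tbx3* (0.074), in place of -1.46. There *Nhlh2* differed between Pomc-very-high and Pomc-intermediate cells by 0.03 (0.78 without *Tbx19*). *Six6* was no longer called higher in Agrp-high cells in 6 of 14 alternatives. *Nhlh2* and *Nkx2-1* were lower in Agrp-high cells in 14 of 14, and *Prdm12* higher in Pomc-very-high than Pomc-intermediate cells in 13 of 13 (1.78 to 4.46). The settings that leave out cells with *Tbx19* or other markers were chosen after seeing the data. The cause of these changes was not tested. No paired analysis was possible because the cells were taken as 1 sample and carry no replicate number shared between groups. Depth limits the values below 5 RPM, which are few reads in shallow cells.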
